A study of Mus musculus with 82 samples.

Results

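The stroke response of lysate RNA from mouse white matter was measured by comparing 3 libraries from white matter after a white matter stroke, captured over zones 1 to 3 around the lesion, with 5 libraries from uninjured white matter whose disease state is labelled sham. These 8 libraries, of 82 in the series, were chosen by their titles and cover every gene, before any immunoprecipitation, so they hold RNA from every cell type in the captured tissue. The study as a whole set ribosome-bound RNA enriched for astrocytes (IP) beside cleared lysate RNA (input) in white matter and cortex, to describe spatial zones of reaction after stroke. The tissue was taken by laser from frozen brains of mice perfused with 0.5% paraformaldehyde, and both groups were handled in that way. The molecule is labelled total RNA for input and polyA RNA for IP. Strain, genotype, age, sex, the time since the stroke, the promoter that drives the ribosome tag and the full name of the stroke model are not given in the labels, and no label ties a library to an animal. The p-values below therefore measure the spread between libraries, which may be technical.

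White matter is a tissue of axons, the oligodendrocytes that wrap them in myelin, astrocytes, microglia and vessels. After ischaemia, microglia and incoming macrophages take up myelin and dead cells, digest them in lysosomes and export the lipid on apolipoproteins. They also make complement, while astrocytes build up intermediate filaments and secrete protease inhibitors.

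The libraries held 11498394 to 12893706 counts after stroke and 9048281 to 16912783 in uninjured tissue. Mitochondrial ribosomal RNA (mt-Rnr1 and mt-Rnr2) took 39.9% to 62.6% of all counts after stroke and 46.4% to 66.2% in uninjured tissue, and Gm42418, CT010467.1, Gm23935 and Lars2 took 12.5% to 36.4% and 6.06% to 23.4%. With these 6 genes set aside, 2972145 to 3219469 counts remained after stroke and 2727829 to 5534137 in uninjured tissue, and CPM below means counts per 1000000 counts of that remainder. The summed CPM of 24 myelin genes was 32323 to 36748 after stroke and 41071 to 45892 in uninjured tissue. All 24 passed the filter on low counts. The summed CPM of 27 neuronal genes was 2113 to 2262 after stroke and 1202 to 1691 in uninjured tissue. No sum from cortex was set beside these, so the white matter label was not tested.

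The stroke libraries were less alike than the uninjured ones. Pearson's r of log2 CPM across genes was 0.593 to 0.67 between stroke libraries and 0.712 to 0.765 between uninjured libraries; genes are not independent replicates. Stroke replicate 1 stood apart on the first principal component (26.9% of variance), at 212.2, with the other libraries between -40.56 and -10.53. Stroke replicate 2 stood apart on the second (18.7%), at 175.7, and held 19.7% of the remaining counts in predicted genes, against 12.8% and 12.9% in the other stroke libraries and 12.1% to 12.8% in uninjured tissue. In 32 of 14556 tested genes stroke replicate 1 had at least 10 CPM and at least 10 times the highest of the other 7 libraries, against 11 and 4 genes for stroke replicates 2 and 3 and 1 to 5 for the uninjured libraries. Acsbg1, an acyl-CoA synthetase of astrocytes, falls short of that rule but also had unequal stroke libraries, with 530 CPM in stroke replicate 1, 16.4 in replicate 2 and 19.5 in replicate 3, against 18.3 to 62.7 in uninjured tissue. Olfactory and vomeronasal receptor genes, known from sensory neurons of the nose, took 0.0419%, 0.0726% and 0.0471% of the remaining counts after stroke and 0.00818% to 0.0146% in uninjured tissue (2-sided exact permutation p = 0.0357, the smallest that 3 against 5 libraries can give; adjusted over 10 measures of composition, 0.357). The part of these differences in the results below was not tested.

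**Figure D1:**
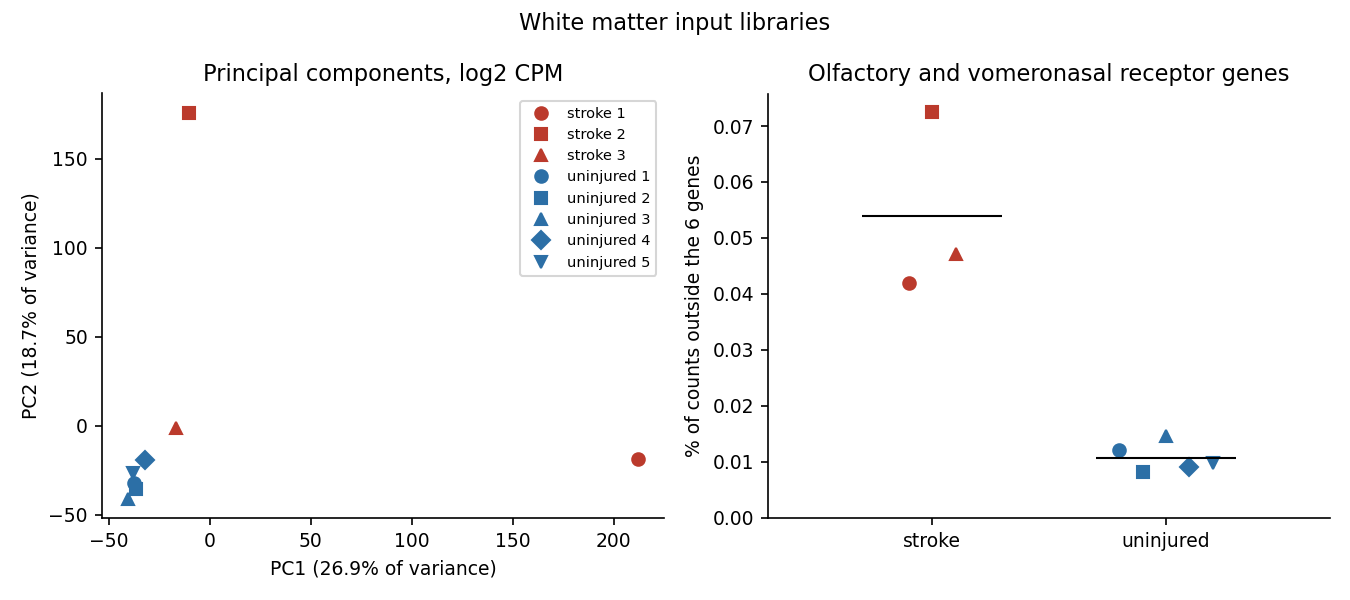
White matter input libraries. Left, the first and second principal components of log2 CPM, 1 point per library; stroke replicate 1 lies at 212.2 on the first and stroke replicate 2 at 175.7 on the second. Right, the percent of counts outside the 6 set-aside genes that fell in olfactory and vomeronasal receptor genes, with the mean as a line; the 3 stroke libraries lie above all 5 uninjured libraries.

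Across 14556 genes tested with edgeR's quasi-likelihood test, 8 rose after stroke and 0 fell at a Benjamini-Hochberg adjusted p under 0.05, which is 0.055% of genes called higher. The 8 were Ctsd, Fyb, Vim, C1qc, Dhrs3, C1qb, Mpeg1 and B2m. As background, 7 of them are known as genes of phagocytes, lysosomes, complement, antigen presentation or reactive glia, and Dhrs3 encodes a retinal reductase. This grouping was made with the genes known. The share of all tested genes that it would cover was not counted, so it is no result about the response. At an unadjusted p under 0.05 there were 802 higher genes (5.51%) and 599 lower genes (4.12%), and DESeq2's Wald test called 178 higher and 106 lower. In 380 genes (2.61%) every stroke library lay above every uninjured library, and in 553 (3.8%) every stroke library lay below. The median log2 fold change of all tested genes was -0.01.

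Ctsd, the lysosomal protease cathepsin D (chr7:142375911-142388038), had 1673, 1044 and 1075 CPM after stroke, against 141, 195, 119, 117 and 61.2 CPM in uninjured white matter. The lowest stroke library lay far above the highest uninjured one. The log2 fold change was 3.45 ± 0.32 (SE; adjusted p = 0.000172, edgeR), and Ctsd was called in all 20 alternative analyses. Ctsd is a textbook target of TFEB, a transcription factor that drives lysosomal genes through the palindromic motif TCACGTGA. The start region given for it by RefSeq (GRCm38.p6, chr7:142387778-142388077, minus strand, 250 bases before and 50 after the start) is shown because it holds that motif once, at position -99, in capitals; 1.01% of 27025 RefSeq start regions of the same length hold it on either strand, and those of the other 7 called genes do not. The GENCODE gene reaches past the RefSeq start, to 142388038.
Ctsd: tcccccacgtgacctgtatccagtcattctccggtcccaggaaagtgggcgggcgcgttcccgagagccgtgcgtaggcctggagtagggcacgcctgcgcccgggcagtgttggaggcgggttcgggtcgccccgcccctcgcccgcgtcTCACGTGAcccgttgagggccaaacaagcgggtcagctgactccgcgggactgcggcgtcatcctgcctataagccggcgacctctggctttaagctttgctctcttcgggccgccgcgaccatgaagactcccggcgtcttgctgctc

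Both called complement genes encode chains of C1q, the first component of the classical pathway, which microglia are known to make. C1qc (chr4:136889804-136893065) had 280, 226 and 293 CPM after stroke, against 25.1, 77.4, 27.4, 33.4 and 24.4 CPM in uninjured tissue. Its stroke libraries were close together and among the controls uninjured replicate 2 stood well above the others. The log2 fold change of C1qc was 2.93 ± 0.42 (adjusted p = 0.0104, edgeR). C1qb (chr4:136880129-136886187) had 558, 137 and 253 CPM after stroke, against 51.7, 66.4, 33.6, 49.5 and 56.6 CPM in uninjured tissue, a log2 fold change of 2.76 ± 0.42 (adjusted p = 0.0179, edgeR). Here the controls were close and the stroke libraries spread, without overlap. The third chain gene, C1qa, had 31.7, 3.69 and 21.2 CPM after stroke, against 3.25, 0.367, 0.269, 1.53 and 0.976 CPM in uninjured tissue, and missed the threshold (3.93 ± 1.23, adjusted p = 0.288, edgeR). PU.1 is a transcription factor of microglia and macrophages, and a short form of its motif, GAGGAAG, was searched on both strands. The C1qc start region (RefSeq, GRCm38.p6, chr4:136892865-136893164, minus strand) is shown with its 1 match, on the opposite strand at position -194, in capitals; 13.5% of start regions hold this short motif. Among the other called genes, the start region of Vim held 2 matches and those of Ctsd, Fyb, C1qb, Mpeg1, Dhrs3 and B2m held 0.
C1qc: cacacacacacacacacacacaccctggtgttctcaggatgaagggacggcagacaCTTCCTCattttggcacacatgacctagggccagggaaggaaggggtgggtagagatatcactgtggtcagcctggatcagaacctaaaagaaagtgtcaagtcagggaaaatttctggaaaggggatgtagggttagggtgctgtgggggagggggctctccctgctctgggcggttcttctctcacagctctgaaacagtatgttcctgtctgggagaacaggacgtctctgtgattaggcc

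B2m, the shared light chain of MHC class I (chr2:122147686-122153083), had 772, 380 and 451 CPM after stroke, against 166, 129, 104, 193 and 77.8 CPM in uninjured tissue. All stroke libraries lay above all controls, and the log2 fold change was 2.12 ± 0.34 (adjusted p = 0.0267, edgeR). B2m is a known interferon target. Its start region (RefSeq, GRCm38.p6, chr2:122147437-122147736, plus strand) is shown with its 1 match to the interferon-stimulated response element searched as GAAA, any 2 bases and GAAA, at position -139, in capitals; 3.49% of start regions hold a match on either strand. Dhrs3 held 1 match at 2 of its 3 listed starts, at the same bases, and the other 6 called genes held 0.
B2m: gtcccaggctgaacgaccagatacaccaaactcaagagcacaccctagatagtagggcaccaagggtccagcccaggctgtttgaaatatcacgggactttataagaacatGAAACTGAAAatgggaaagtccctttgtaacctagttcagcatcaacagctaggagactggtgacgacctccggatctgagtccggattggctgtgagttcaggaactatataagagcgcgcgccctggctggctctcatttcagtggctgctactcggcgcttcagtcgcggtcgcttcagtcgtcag

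Vim, the intermediate filament vimentin of reactive astrocytes and other cell types (chr2:13573927-13582826), had 390, 425 and 293 CPM after stroke, against 66.3, 68.2, 28, 80.9 and 91.0 CPM in uninjured tissue. Every stroke library was well above the highest control, with a log2 fold change of 2.58 ± 0.36 (adjusted p = 0.0104, edgeR). Fyb, an adaptor of integrin signalling in cells of the blood lineage (chr15:6522853-6663313), had 392, 237 and 266 CPM after stroke, against 18.3, 35.9, 37.7, 21.2 and 70.7 CPM in uninjured tissue. The Fyb groups did not overlap, and its log2 fold change was 3.15 ± 0.44 (adjusted p = 0.0104, edgeR).

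Mpeg1, the pore-forming perforin-2 of macrophages (chr19:12460779-12465283), had 326, 61.4 and 113 CPM after stroke, against 23.9, 15.4, 17.0, 10.5 and 14.1 CPM in uninjured tissue. Stroke replicate 1 was by far the highest, and all stroke libraries lay above the controls; the log2 fold change was 3.52 ± 0.55 (adjusted p = 0.0201, edgeR). Dhrs3, which reduces retinal to retinol (chr4:144892827-144928209), had 161, 64.7 and 17.8 CPM after stroke, against 1.08, 1.83, 1.61, 2.55 and 2.68 CPM in uninjured tissue. Its groups were far apart although the stroke libraries themselves differed widely, and the log2 fold change of 5.55 ± 0.80 (adjusted p = 0.0104, edgeR) was the highest of the 8. The Dhrs3 control values rest on 5 to 11 counts per library. Fewer than 3 uninjured libraries reached 10 counts, so Dhrs3 passed the filter on low counts through its stroke libraries. Its call and its rank among the 8 carry that limit.

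**Figure D2:**
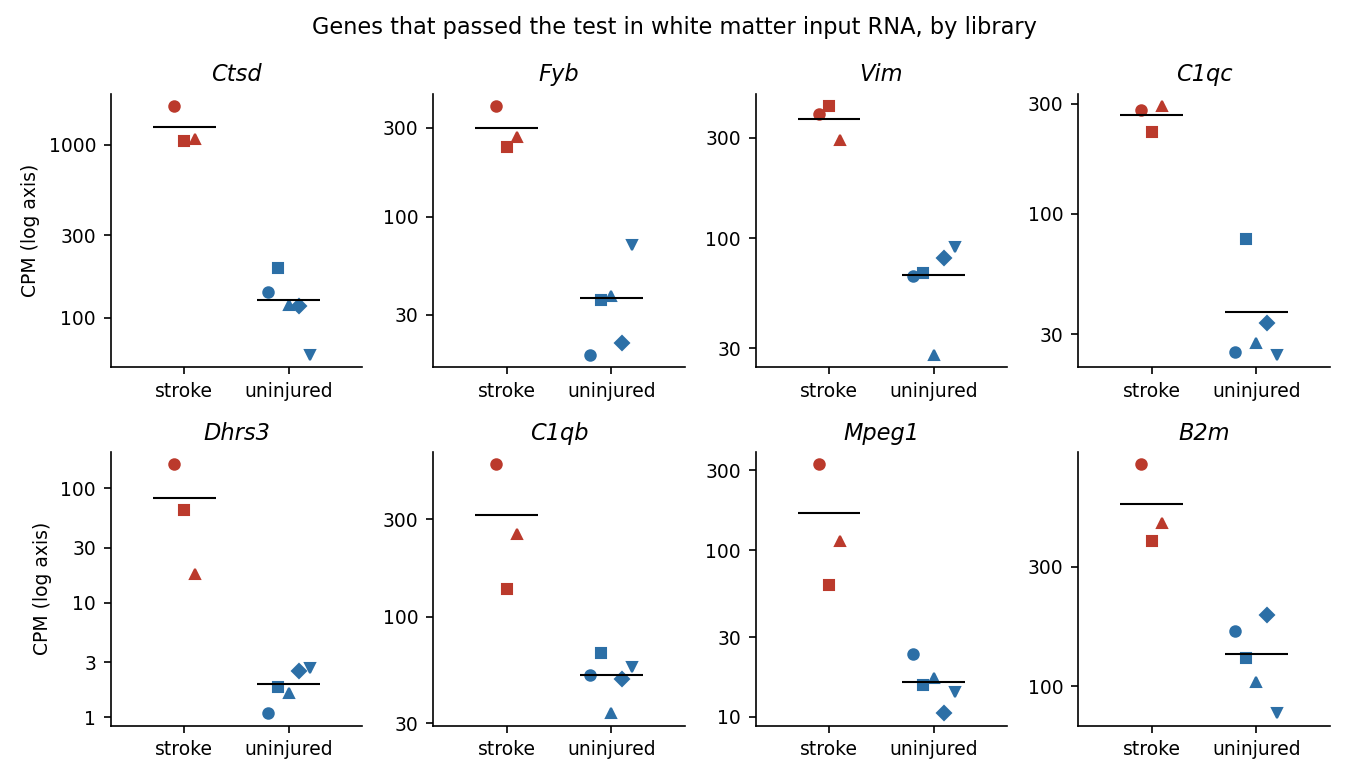
CPM on a log axis of the 8 genes that rose in white matter input RNA after stroke, with 3 stroke libraries (left, red) and 5 uninjured libraries (right, blue) in each panel; marker shapes give the replicate and the line the mean. In all 8 panels the lowest stroke library lies above the highest uninjured library.

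The calls depended on single libraries. Without stroke replicate 1, only Ctsd passed (adjusted p = 0.00247), and the log2 fold changes of the others were 2.78 for Fyb (adjusted p = 0.0732), 2.45 for Vim (0.0705), 2.79 for C1qc (0.0705), 4.45 for Dhrs3 (0.153), 1.90 for C1qb (0.133), 2.40 for Mpeg1 (0.22) and 1.62 for B2m (0.133), all with edgeR. Without uninjured replicate 2, Ctsd and C1qc passed; Fyb, Vim, C1qb and Dhrs3 were at an adjusted p of 0.0652 and Mpeg1 and B2m at 0.104. Leaving out uninjured replicate 1 ended the calls of C1qb and B2m (both 0.0543). Leaving out uninjured replicate 3 ended those of C1qb, Mpeg1 (both 0.0627) and B2m (0.1), replicate 4 those of C1qb (0.0906) and Mpeg1 (0.0927), and replicate 5 those of C1qb, Mpeg1 and B2m (each 0.068). In the 20 alternative analyses the log2 fold changes of the 8 genes were all positive, the lowest being 1.62.

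The next genes by p, taken only from genes whose groups did not overlap, did not pass. Pfkfb3, a driver of glycolysis, had 645, 54.3 and 86.8 CPM after stroke, against 24.2, 9.16, 17.0, 31.4 and 6.34 CPM in uninjured tissue (log2 fold change 4.08 ± 0.73, adjusted p = 0.0694, edgeR). Ifi204, an interferon-inducible DNA sensor, had 152, 8.05 and 3.03 CPM after stroke and no count in any uninjured library. It did not pass (adjusted p = 0.0707, edgeR). Set against a floor of 3 counts over the uninjured group, the pooled stroke libraries were at least 379-fold higher. Stroke replicate 1 held 488 of the 521 pooled counts, so this ratio is no lower bound for the other stroke libraries. St6galnac4, a sialyltransferase, had 85.7, 14.1 and 12.1 CPM after stroke, against 0.51 to 1.47 CPM in uninjured tissue (adjusted p = 0.0787, edgeR). All 3 genes were highest in stroke replicate 1, and their lack of overlap was a condition of their choice. Apoe, the main lipid carrier of the brain, had 554, 544 and 705 CPM after stroke, against 302, 348, 256, 236 and 249 CPM in uninjured tissue, with no overlap and an even spread (log2 fold change 1.20 ± 0.22, adjusted p = 0.0787, edgeR).

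Lists of genes by cell type or function were described by counts and medians and were not tested as sets. Since a gene can enter the test through its stroke counts alone, the lists are counted over the 12888 genes with at least 10 counts in at least 3 uninjured libraries. Among these, 275 (2.13%) had all stroke libraries above all uninjured ones and 553 (4.29%) had them below, and the median log2 fold change was -0.07. In bulk tissue, more or fewer cells of a type and more or less RNA per cell cannot be told apart. Without stroke replicate 1, 5.73% of these genes lay above and 7.69% below without overlap, with 7 of 13 measurable activated microglia genes above and 7 of 24 myelin genes below. The lists overlap: Ctsd, Ctss, Ctsz and Cd68 stand both among the activated microglia and the lysosome genes.

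The 26 genes of activated microglia and macrophages summed to 4141, 2584 and 3343 CPM after stroke, against 676 to 999 CPM in uninjured tissue. This sum includes members that were not measurable in uninjured libraries. Ctsd alone had a mean of 1264 CPM after stroke and 126.7 CPM in uninjured tissue, of mean sums of 3356 and 859 CPM. Of 13 measurable members, 7 were above without overlap (Cd68, Tyrobp, Apoe, Ctsd, Ctss, Ctsz and Cd52) and 0 below, with a median log2 fold change of 1.98; 1, Ctsd, passed the test. Tyrobp, a signalling adaptor of TREM2, had 213, 46.3 and 107 CPM after stroke, against 17.7, 14.7, 10.5, 18.9 and 2.2 CPM in uninjured tissue (3.39 ± 0.67, adjusted p = 0.107, edgeR). Spp1, osteopontin, had 18.0, 52.3 and 73.7 CPM after stroke, against 4.16, 0, 0, 0.51 and 0 CPM in uninjured tissue. For Spp1 stroke replicate 1 was the lowest of the stroke libraries and still above every control, and the gene did not pass (adjusted p = 0.15, edgeR).

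Of 15 genes of resting microglia, all measurable, 5 were above without overlap (Cx3cr1, Csf1r, Fcrls, Cst3 and Sparc), 0 below and 0 passed, with a median of 0.95. Csf1r, the receptor microglia need to survive, had 218, 195 and 271 CPM after stroke, against 59.4, 73.0, 40.9, 52.0 and 134 CPM in uninjured tissue (1.75 ± 0.39, adjusted p = 0.119, edgeR). Cx3cr1, the fractalkine receptor, had 262, 260 and 129 CPM after stroke, against 32.0, 53.9, 28.3, 116 and 70.2 CPM in uninjured tissue (1.98 ± 0.47, adjusted p = 0.156, edgeR). The purinergic receptor gene P2ry12 overlapped, with 75.8, 39.2 and 75.4 CPM after stroke, against 28.3 to 87.8 CPM in uninjured tissue (0.60 ± 0.56). Of 22 markers of blood leukocytes 2 were tested, Csf3r and Ptprc, and 8, among them the neutrophil genes S100a8, S100a9 and Mmp8 and the T cell genes Cd3g and Cd4, had no count in any of the 8 libraries, which allows up to 0.327 CPM after stroke and 0.15 CPM in uninjured tissue for counting error only. Csf3r, the receptor of the granulocyte growth factor, had 124, 63.0 and 103 CPM after stroke, against 21.3, 51.3, 70.8, 5.1 and 24.4 CPM in uninjured tissue, with overlap in 1 pair of libraries (1.60 ± 0.65, adjusted p = 0.421, edgeR). Which cell type the Csf3r counts came from was not tested. Ptprc, the pan-leukocyte CD45 gene that microglia also express, had 116, 86.2 and 108 CPM after stroke, against 14.4 to 43.4 CPM in uninjured tissue (2.11 ± 0.50, adjusted p = 0.156, edgeR).

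Of 26 lysosome and phagocytosis genes, all measurable, 6 were above without overlap and 0 below, with a median of 0.97. The 27 genes of the list summed to 4887 to 5347 CPM after stroke and 2533 to 3134 CPM in uninjured tissue. Ctsd alone had a mean of 1264 CPM after stroke and 126.7 CPM in uninjured tissue, of mean sums of 5164 and 2770 CPM. Grn, the lysosomal protein progranulin, had 132, 149 and 154 CPM after stroke, against 71.2, 37.4, 36.6, 72.2 and 23.9 CPM in uninjured tissue (1.67 ± 0.44, adjusted p = 0.198, edgeR). Ctsb, cathepsin B, overlapped in 1 pair of libraries, with 691, 440 and 621 CPM after stroke, against 231, 181, 446, 285 and 149 CPM in uninjured tissue (1.28 ± 0.33, adjusted p = 0.194, edgeR). The membrane protein gene Lamp1 overlapped widely, with 403, 1222 and 1152 CPM after stroke, against 653 to 986 CPM in uninjured tissue (0.17 ± 0.28); its sign turned without stroke replicate 2.

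Of 16 measurable genes of lipid transport and storage, 5 were above without overlap (Apoe, Abca1, Clu, Lcat and Lrp1), 0 below and 0 passed, with a median of 0.93. Abca1, the pump that loads cholesterol on apolipoprotein E, had 311, 273 and 219 CPM after stroke, against 88.4, 127, 101, 90.6 and 89.0 CPM in uninjured tissue (1.56 ± 0.31, adjusted p = 0.105, edgeR). Lrp1, an apolipoprotein E receptor, had 602, 211 and 281 CPM after stroke, against 183, 195, 100, 140 and 107 CPM in uninjured tissue (1.48 ± 0.37, adjusted p = 0.194, edgeR). Genes of cholesterol and fatty acid synthesis lay on the other side of 0, with a median of -0.31 over 22 genes; 1, Fads2, was above without overlap and 1, Scd2, below. Scd2, the desaturase of brain lipid synthesis, had 1115, 974 and 1183 CPM after stroke, against 1242 to 1825 CPM in uninjured tissue (-0.37 ± 0.19, adjusted p = 0.549, edgeR).

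Of 6 measurable complement genes of 16, 3 were above without overlap (C1qb, C1qc and C4b), with a median of 2.10. C4b, the complement component made by glia, had 191, 261 and 293 CPM after stroke, against 77.5, 95.7, 15.3, 38.8 and 35.4 CPM in uninjured tissue (2.33 ± 0.47, adjusted p = 0.107, edgeR). Of 8 measurable interferon response genes, 1 was above, with a median of 0.91. That gene, Oasl2, had 226, 155 and 55.2 CPM after stroke, against 8.49, 5.5, 48.7, 5.36 and 2.2 CPM in uninjured tissue (3.53 ± 0.82, adjusted p = 0.15, edgeR). Among 6 measurable genes of antigen presentation, B2m alone was without overlap. The heavy chain gene H2-K1 overlapped, with 76.7, 80.1 and 84.5 CPM after stroke, against 29.1, 10.6, 103, 42.9 and 20.7 CPM in uninjured tissue (1.05 ± 0.63).

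**Figure D3:**
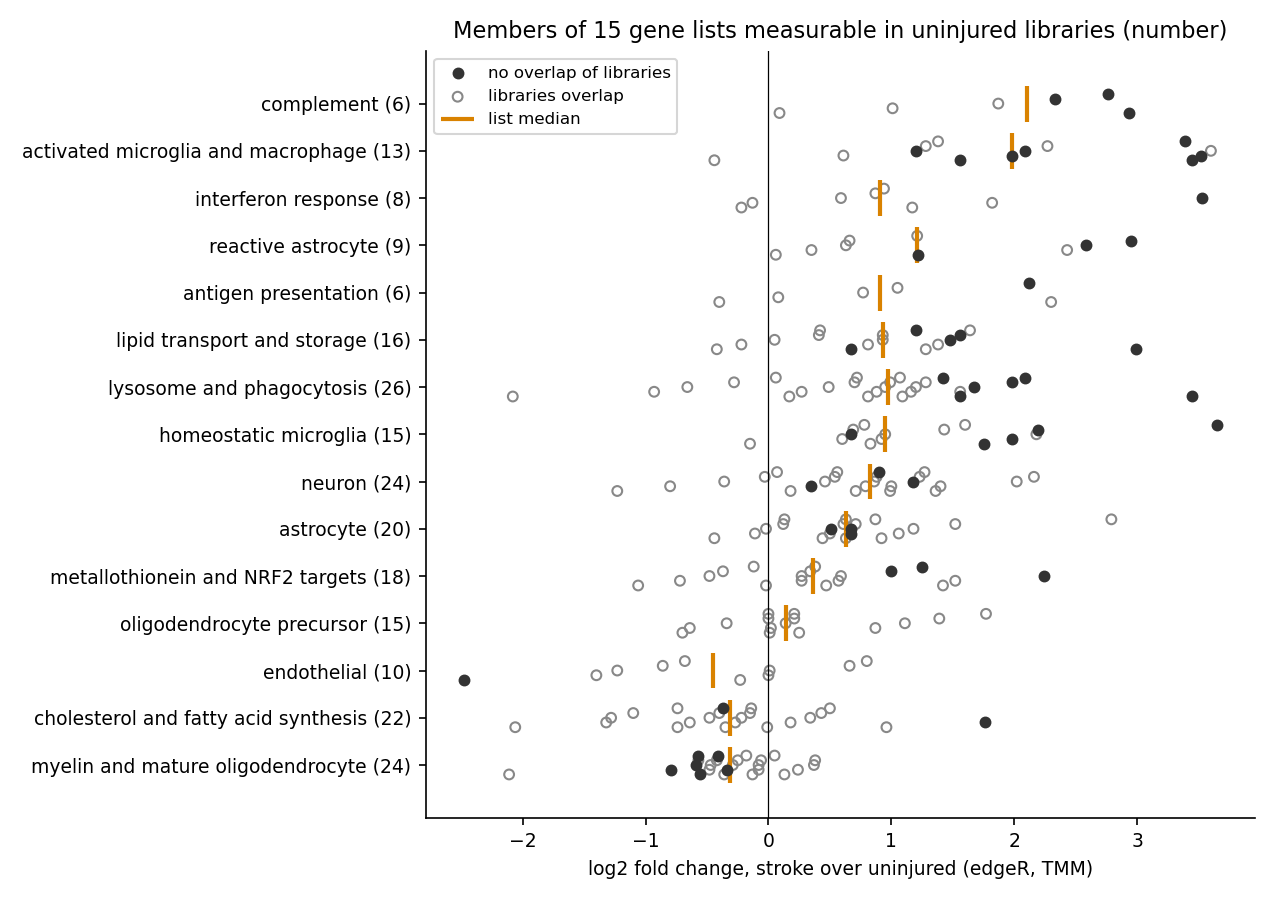
Log2 fold change, stroke over uninjured, of members of 15 gene lists measurable in uninjured libraries, 1 point per gene; filled points are genes whose stroke and uninjured libraries do not overlap, and the orange tick is the list median. Medians run between 2.10 for complement and -0.45 for endothelial genes, and the 6 filled myelin genes lie left of 0.

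Of 20 general astrocyte genes, all measurable, 3 were above without overlap (Aldoc, Glul and Clu), 0 below and 0 passed, with a median of 0.63 and a sum of 10575 to 13877 CPM after stroke and 8044 to 9194 CPM in uninjured tissue. Gfap, the filament that marks reactive astrocytes, had 3034, 1680 and 2069 CPM after stroke, against 1818, 1551, 1998, 1006 and 1589 CPM in uninjured tissue. The groups overlapped, and Gfap did not pass (0.63 ± 0.24, adjusted p = 0.406, edgeR). Of 9 measurable reactive astrocyte genes, 3 were above without overlap (Vim, Serpina3n and Il6st), with a median of 1.21. Serpina3n, a secreted inhibitor of serine proteases, had 517, 378 and 341 CPM after stroke, against 8.49, 22.4, 31.8, 123 and 102 CPM in uninjured tissue; every stroke library was well above the highest control, but the controls differed widely (2.95 ± 0.62, adjusted p = 0.113, edgeR). Il6st, the gp130 receptor chain, had 260, 485 and 166 CPM after stroke, against 123 to 159 CPM in uninjured tissue (1.22 ± 0.34, adjusted p = 0.229, edgeR). Among 18 measurable genes of metal and oxidative stress, 3 were above without overlap (Prdx6, Gsta4 and Ftl1). Prdx6, a peroxiredoxin, had 393, 350 and 339 CPM after stroke, against 236, 159, 188, 191 and 195 CPM in uninjured tissue (1.00 ± 0.26, adjusted p = 0.194, edgeR).

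Myelin genes, like those of lipid synthesis, had a median below 0. Of 24, all measurable, 0 were above and 6 below without overlap (Mog, Mobp, Cnp, Mal, Plekhb1 and Tspan2), 0 passed, and the median was -0.32. Mog, a protein of the outer myelin surface, had 158, 226 and 324 CPM after stroke, against 396, 409, 394, 536 and 381 CPM in uninjured tissue (-0.79 ± 0.26, adjusted p = 0.322, edgeR). Plekhb1, a membrane-bound protein of oligodendrocytes, had 566, 695 and 736 CPM after stroke, against 1071, 1125, 928, 1083 and 1036 CPM in uninjured tissue (-0.57 ± 0.19, adjusted p = 0.315, edgeR). Both genes were lower in all 3 stroke libraries than in any control, by less than 1 on the log2 scale. Mbp, which encodes myelin basic protein, overlapped, with 7632, 8729 and 9906 CPM after stroke, against 8938 to 11765 CPM in uninjured tissue (-0.18 ± 0.13). Of 15 precursor genes, 0 were without overlap, with a median of 0.14. Gpr17, a receptor of cells about to form myelin, had 46.6, 193 and 234 CPM after stroke, against 31.1 to 137 CPM in uninjured tissue (1.11 ± 0.54, adjusted p = 0.535, edgeR).

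Neuronal genes, markers of the grey matter next to white matter, also had higher sums after stroke. The 27 genes summed to 2113, 2262 and 2133 CPM after stroke, against 1512, 1202, 1309, 1691 and 1262 CPM in uninjured tissue, without overlap. Of 24 measurable members, 3 were above without overlap (Rbfox3, Map2 and Grin2b), 0 below and 0 passed, with a median of 0.82. Snap25, a synaptic vesicle fusion protein, had 329, 652 and 492 CPM after stroke, against 246, 166, 247, 431 and 214 CPM in uninjured tissue, with overlap in 1 pair (0.99 ± 0.32, adjusted p = 0.304, edgeR). The part of this neuronal difference in the lower myelin sums was not tested. Of 10 measurable endothelial genes, 0 were above and 1, Vwf, below, with a median of -0.45. Vwf, von Willebrand factor, had 7.45, 3.02 and 9.42 CPM after stroke, against 104, 37.8, 14.0, 17.3 and 21.7 CPM in uninjured tissue (-2.48 ± 0.90, adjusted p = 0.378, edgeR).

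**Figure D4:**
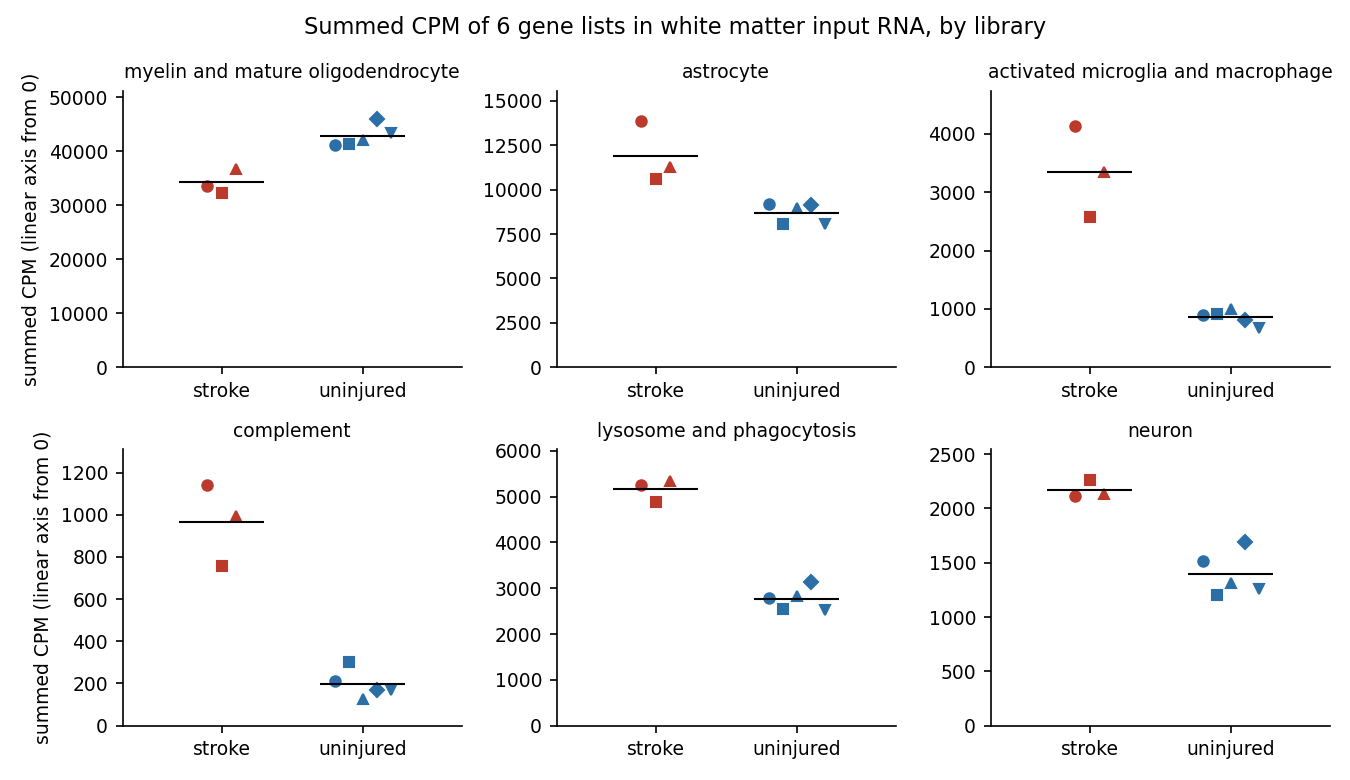
Summed CPM of 6 gene lists on linear axes from 0, with 3 stroke libraries (left, red) and 5 uninjured libraries (right, blue) per panel; marker shapes give the replicate and the line the mean. The myelin sums are lower after stroke and the other 5 sums higher, without overlap in any panel. Ctsd is part of both the activated microglia and the lysosome sums.

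Among genes whose stroke libraries all lay below the uninjured ones, none of the 12 of lowest p passed the test. The first, the phosphatase gene Ptp4a1, had 14.6, 24.5 and 33.0 CPM after stroke, against 255, 62.3, 135, 92.1 and 138 CPM in uninjured tissue (-2.45 ± 0.52, adjusted p = 0.113, edgeR). Tut4, a uridylyltransferase that marks RNA for decay, had 43.8, 43.6 and 73.7 CPM after stroke, against 132, 176, 128, 145 and 183 CPM in uninjured tissue (-1.44 ± 0.37, adjusted p = 0.194, edgeR). Zfp488, a transcription factor of oligodendrocyte maturation, had 0.311, 7.04 and 5.72 CPM after stroke, against 29.6, 40.0, 57.0, 85.0 and 27.1 CPM in uninjured tissue (-3.41 ± 0.93, adjusted p = 0.208, edgeR). Rapgef6, an exchange factor for Rap proteins, had 45.7, 60.7 and 59.9 CPM after stroke, against 136 to 174 CPM in uninjured tissue (-1.37 ± 0.36, adjusted p = 0.194, edgeR). The lack of overlap in these 4 genes was a condition of their choice. Stroke replicate 1 had the lowest value for Ptp4a1, Zfp488 and Rapgef6. Among nuclear long non-coding RNAs, Malat1 had 56076, 50359 and 56841 CPM after stroke, against 57046, 74241, 75030, 66581 and 74386 CPM in uninjured tissue (-0.25 ± 0.11, adjusted p = 0.473, edgeR). Sox2ot, which overlaps the stem cell gene Sox2, had 290, 569 and 777 CPM after stroke, against 878 to 1185 CPM in uninjured tissue (-0.84 ± 0.24, adjusted p = 0.239, edgeR).

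The same contrast was made in cortex input (3 stroke and 5 uninjured libraries, 13515 genes tested) and in white matter IP (3 and 5 libraries, 12017 genes tested); no library is shared, though input and IP may come from the same lysates. Cortex input gave 1 call, Vim (0.0074%), and white matter IP gave 4, Ctsd, Ctsb, C1qb and Csf1r (0.0333%), all higher after stroke. Ctsd had a log2 fold change of 3.45 ± 0.32 in white matter input, 2.00 ± 0.46 in cortex input and 3.18 ± 0.44 in white matter IP. Dhrs3 had 5.55 ± 0.80 in white matter input, -0.07 ± 0.80 in cortex input and 2.69 ± 1.62 in white matter IP. Vim had 2.58 ± 0.36, 3.06 ± 0.40 and 2.40 ± 0.55 in the same order.

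Counted over genes measurable in the uninjured libraries of each comparison, 7 of 13 activated microglia and macrophage genes were above without overlap in white matter input, 1 of 9 in cortex input and 7 of 10 in white matter IP, where all measurable genes gave 2.13%, 1.86% and 2.57%. The median log2 fold changes of these members were 1.98 in white matter input, 0.20 in cortex input and 2.18 in white matter IP, over partly different members. Myelin genes were below without overlap in 6 of 24 in white matter input, 1 of 19 in cortex input and 2 of 24 in white matter IP, beside 4.29%, 1.45% and 2.67% of all measurable genes. Their medians were -0.32, 0.14 and -0.42. For neuronal genes the medians were 0.82, -0.08 and 0.80. These differences between the lists' counts were not tested. The counts remaining per library in cortex input and white matter IP were not set beside those in white matter input. The part of such library sizes in these counts, medians and numbers of calls was not tested.

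Whether a response differed between tissues was tested as an interaction in the 16 input libraries of white matter and cortex. With edgeR, 0 of 18936 genes passed, 1971 had an unadjusted p under 0.05, limma voom called 3 and DESeq2 155. The lowest p was that of the mucin gene Muc16 (adjusted p = 0.0551, edgeR), named after its values were seen. It had 34, 3 and 120 counts in white matter after stroke and 0, 0, 0, 1 and 2 in uninjured white matter, and 207, 32 and 21 counts in cortex after stroke and 428, 100, 126, 51 and 156 in uninjured cortex. Pfkfb3, Dhrs3 and Tut4 were also among the 5 genes of lowest p. Pfkfb3 had a log2 fold change of 4.08 ± 0.73 in white matter and -0.93 ± 0.48 in cortex (difference 4.89 ± 0.93, adjusted p = 0.102, edgeR). For Dhrs3 the difference was 5.51 ± 1.16 (adjusted p = 0.203, edgeR). Tut4 had -1.44 ± 0.37 in white matter and 0.91 ± 0.33 in cortex (difference -2.41 ± 0.52, adjusted p = 0.203, edgeR). For Ctsd the difference was 1.39 (95% CI 0.14 to 2.65, adjusted p = 0.427, edgeR) and for Fyb 2.15 (0.37 to 3.92, adjusted p = 0.376), so these libraries leave wide intervals. The interaction of input with IP in white matter gave 0 of 15880 genes with edgeR, 1457 at an unadjusted p under 0.05, 0 with limma voom and 131 with DESeq2. Ctsd differed by 0.26 (95% CI -0.87 to 1.39), Fyb by -0.08 (-1.79 to 1.64) and B2m by 0.07 (-1.23 to 1.37). Dhrs3 differed by 2.88 (-0.72 to 6.48). Ctsb and Csf1r were looked at because they passed in IP and not in input. Ctsb differed by -1.27 (-2.29 to -0.25, adjusted p = 0.459, edgeR) and Csf1r by -1.36 (-2.71 to -0.01, adjusted p = 0.544, edgeR). These intervals do not show that lysate and ribosome-bound RNA responded alike.

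**Figure D5:**
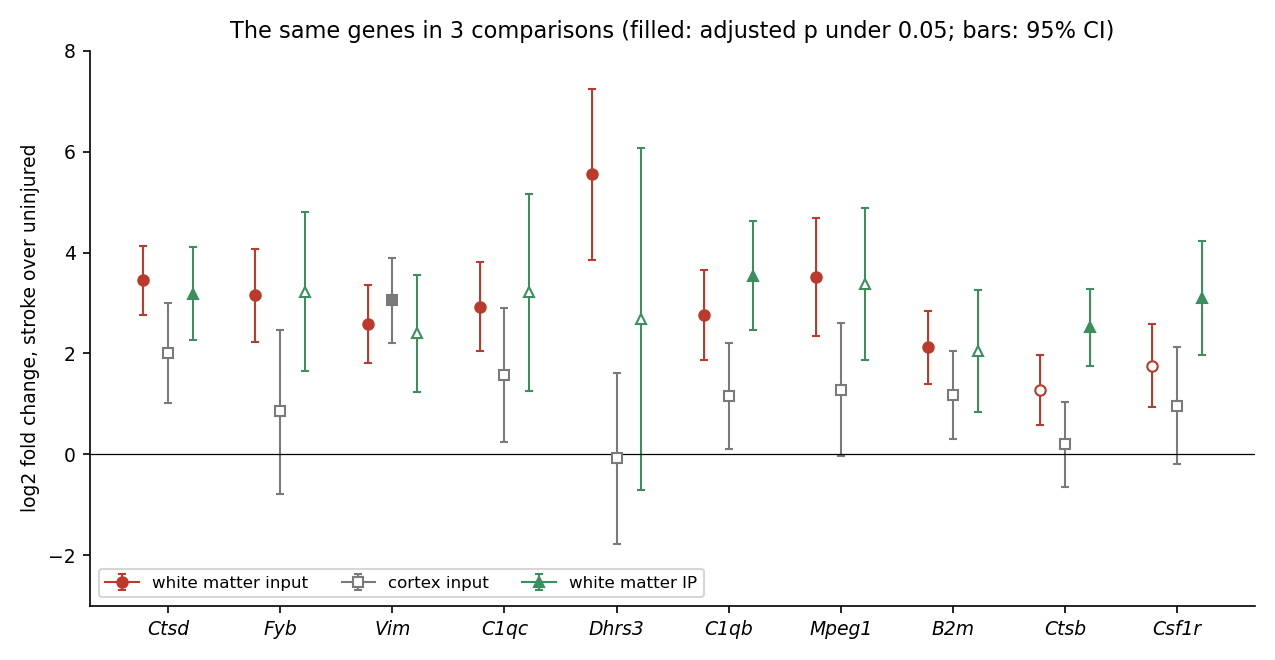
Log2 fold change, stroke over uninjured, with 95% confidence intervals, of the genes called in white matter input or white matter IP, in white matter input (red), cortex input (grey) and white matter IP (green); filled markers passed the test in that comparison. Vim is the only gene filled in cortex, and the intervals of Dhrs3 span 0 in cortex input and white matter IP.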

How the data were processed

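The authors deposited 1 table of unnormalized counts, whole numbers for each of 48795 gene identifiers and each library. The submitters' processing notes name GRCm38 (mm10) as the build; which aligner, counter and annotation were used, and whether counting used strand, is not given in the sources used here. Libraries were made with an amplifying cDNA kit and read as pairs of 50 bases, per the labels' protocols. Column names were matched to titles (L white matter, S uninjured, b input). Gene positions came from GENCODE M21 and start regions from RefSeq.

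After the 6 genes were set aside, genes passed edgeR's filter (minimum count 10, total 15), were scaled by TMM and tested with the robust quasi-likelihood test (edgeR 4.0.16, limma 3.58.1, DESeq2 1.42.0, R 4.3.3), with Benjamini-Hochberg adjustment over all tested genes. The procedure was tested on simulated data in which no library stood apart, so that test does not cover the unequal stroke libraries. Alternatives were DESeq2's size factors and Wald test, limma voom with and without sample weights, other filters, other sets of genes set aside, larger fits, a replicate block and each library left out. The list counts without stroke replicate 1 were chosen after seeing the data. Composition was compared with 2-sided exact permutation tests.

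The comparison, lists and tests were chosen with earlier results of these data known; libraries were assigned to it by title. Genes were named by rule: the 12 of lowest p in each direction, leaving out predicted and receptor genes, up to 4 members of each of 30 lists with the lowest p, the highest member, and a set of reference genes. Members listed as without overlap, and Acsbg1 as an example of unequal libraries, were named after their values were seen. Floors of 3 counts cover counting error only. The SE of a fold change was derived as the absolute log2 fold change over the square root of edgeR's F statistic. The 95% intervals were formed from that SE with a t distribution, and they include the spread between libraries. No 2 libraries of a group agreed within sampling noise.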

Additional observations from a re-analysis of the deposited data

Results flagged for a closer look

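In the 5 uninjured libraries, Dixon's test at 95% marked a single library as far from the others for 11 of 95 genes and composition measures. For normally distributed values chance marks about 1 in 20. Skewed values, such as the CPM of genes with few counts, can raise that rate, so whether 11 of 95 is an excess was not tested. C1qc had 77.4 CPM in uninjured replicate 2, the highest control, and H2-D1, an MHC class I heavy chain gene, had 43.3 CPM in that replicate. Uninjured replicate 4 was high for Mog, at 536 CPM, and for the glutamate transporter gene Slc1a2, at 2675 CPM. Uninjured replicate 1 was high for Acsbg1 (62.7 CPM), Spp1 (4.16 CPM), the chemokine gene Ccl3 (6.51 CPM) and Vwf (104 CPM). Uninjured replicate 3 was high for Oasl2 (48.7 CPM) and the microglial gene Fcrls (21.8 CPM), and uninjured replicate 5 for the hyaluronan receptor gene Cd44 (7.56 CPM). In each case the marked library was the highest of the 5.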

How the results depend on the processing

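The main limits are the small number of libraries, the unequal stroke libraries and the few counts left after ribosomal RNA. Leaving out 1 library gave 1 to 12 calls against the main 8, the lowest without stroke replicate 1. DESeq2's Wald test called 284 genes, testing without a filter on low counts 360, voom with sample weights 16, all white matter groups in one fit 5 and all input groups in one fit 121. The replicate numbers did not pair the libraries (correlations of deviations between -0.06 and 0.07), and the fit with the number as a block called 7 genes, 4 of them among the 8. For the difference from cortex, against 0, DESeq2 called 155, voom 3, no filter 115, the replicate block 7, and leaving out 1 library 0 to 10; for input against IP, DESeq2 called 131, no filter 85, the block 1, and leaving out 1 library 0 to 1. Without a filter, cortex input gave 75 calls and white matter IP 268. Leaving out 1 library, the log2 fold change of Lamp1 ran between -0.15 (without stroke replicate 2) and 0.49, and Acsbg1 between -0.84 (without stroke replicate 1) and 3.32. As shares of all counts, stroke minus uninjured was -0.266 percentage points for mitochondrial mRNA, -0.01997 for ribosomal protein genes, -0.0441 for predicted genes and -1.09 for the 10 highest genes. Leaving out 1 library, the differences in composition were -6.94 to 4.38 points for mitochondrial ribosomal RNA, 0.822 to 12.8 for the other 4 genes set aside, -1260000 to -557900 remaining counts, -1768 to 127.7 genes detected, -0.558 to 0.663 points for mitochondrial mRNA, 0.0116 to 0.0428 for ribosomal protein genes, 0.0338 to 0.0491 for receptor genes, 0.379 to 3.83 for predicted genes, 0.000706 to 0.00458 for haemoglobin genes and -1.27 to 1.15 for the 10 highest genes.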

Other observations

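Of 8 measurable immediate early genes, 0 were without overlap between stroke and uninjured libraries, and the same held for 9 measurable apoptosis and p53 genes, 19 chaperone genes and 13 matrix protease and inhibitor genes. Of all measurable genes 2.13% lay above and 4.29% below, and counts of 0 or 1 in lists of these sizes are near that background. Of 11 measurable cell cycle genes, 0 lay above and 1, Ccna2, below. Of 25 fibroblast and scar matrix genes, 11 were measurable and 1, Sparc, lay above without overlap. Sparc, a matrix glycoprotein that microglia also express, had 494, 314 and 476 CPM after stroke, against 83.8, 183, 27.7, 144 and 64.1 CPM in uninjured tissue (log2 fold change 2.19 ± 0.45, adjusted p = 0.107, edgeR). Fibronectin, Fn1, had 38.5, 75.1 and 65.3 CPM after stroke, against 16.7 to 46.1 CPM in uninjured tissue (1.26 ± 0.58, adjusted p = 0.491, edgeR).

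Of 17 measurable hypoxia and glycolysis genes, Pfkfb3 lay above and Vegfa below without overlap. Vegfa, the vascular growth factor, had 18.0, 24.5 and 18.2 CPM after stroke, against 34.3, 51.3, 116, 33.4 and 24.6 CPM in uninjured tissue (-1.26 ± 0.67, adjusted p = 0.574, edgeR). Gsta4, a detoxifying glutathione transferase, had 89.5, 63.7 and 76.4 CPM after stroke, against 1.81, 17.2, 24.0, 16.6 and 27.6 CPM in uninjured tissue (2.24 ± 0.69, adjusted p = 0.282, edgeR). Ftl1, the ferritin light chain, had 254, 258 and 181 CPM after stroke, against 99.9, 127, 119, 75.3 and 107 CPM in uninjured tissue (1.25 ± 0.32, adjusted p = 0.194, edgeR).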
